A study of Homo sapiens with 16 samples.

Results

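The mRNAs described here encode the 4 proteins of the H/ACA ribonucleoprotein core (DKC1, NHP2, NOP10 and GAR1), the box C/D proteins NOP56, NOP58 and FBL, and the nucleolar proteins NCL and NPM1. Members were all listed positions of protein-coding transcripts whose gene symbol was one of these 9. They made up 3534 of 719918 distinct positions, in 9 of 9568 protein-coding genes. NCL held 1353 of them, FBL 598, NOP56 480, NPM1 478, NHP2 253, DKC1 174, NOP58 99, NOP10 60 and GAR1 39.

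Dyskerin, the product of DKC1, is the catalytic subunit of the H/ACA particles, in which a guide RNA selects the uridine that is turned into pseudouridine. NHP2, NOP10 and GAR1 bind the same particle. FBL, or fibrillarin, is the 2′-O-methyltransferase of the box C/D particles, and NOP56 and NOP58 form their scaffold. Nucleolin (NCL) and nucleophosmin (NPM1) are abundant nucleolar proteins of ribosome assembly.

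The study mapped pseudouridine in polyadenylated RNA from reverse-transcription stops left by CMC, a carbodiimide that forms a stable adduct with pseudouridine. Tested libraries were HEK293T CMC+ with Terminator, HEK293T CMC+, HCT116-shDKC1 CMC+ with Terminator, HCT116 CMC+ with Terminator and HCT116 CMC+, set against the CMC- libraries of the same cells, 2 replicates each (16 libraries in 8 groups). HEK293T is a human embryonic kidney line, and HCT116 is a human colorectal carcinoma line; both are labelled wild type here. HCT116-shDKC1 is labelled as an HCT116 knockdown of DKC1, carries 1 short hairpin, and had no CMC+ libraries without Terminator. Terminator is an exonuclease that degrades RNA with a 5′ monophosphate. Labels tag every library with RA3 and DA3, and the Terminator libraries also with AP5 and either RE (HEK293T) or XhoI (HCT116). The effect of Terminator thus cannot be told apart from that of the other added steps. No label says whether replicates came from separate cultures, so p-values measure the spread between these samples, which may be technical.

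Each of 10 tables set a treated library beside its control and gave, per position, stop reads and covering reads. The stop percent is the share of covering reads that end at the position. Library totals ran from 8.65e+06 to 3.13e+07 reads, tables held 87358 to 234168 positions, and the median covering reads per listed position were 49.1 to 213 across columns. To be listed, a position needed 5 or more stop reads in the treated library, 1 or more in its control, and a stop ratio no lower with treatment than in the control. A higher stop percent in the treated library was thus a condition of listing within each table and is no finding, and an unlisted position is not one without stops. Tests of treated against CMC- libraries used only positions listed in every table of the fit. Listing thus set the direction of their changes almost entirely, and their p-values and calls carry this selection. The lines matched their labels: all 8 epithelial markers were listed in HCT116 and in HCT116-shDKC1 tables but only KRT18, with 2 positions, in HEK293T, and VIM had 925 positions in HEK293T tables and 0 in the others. NEFM and NEFL were listed in HEK293T only, INA in none, and HOXA9 at 61 positions in HEK293T tables, 2 in HCT116-shDKC1 and 6 in HCT116.

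The uridines printed here carry the main measurements on these mRNAs, and the adenosine is the single NOP58 position that the main fits could test. The listed base is in capitals, 10 bases stand on each side, and positions are in hg38.
NHP2 U at chr5:178149666, minus strand, 3′ UTR, exon 4, mRNA base 659: gctattgggcTggcagcagga
DKC1 U at chrX:154762912, plus strand, 5′ UTR, exon 1, mRNA base 157: ggcgggagtcTgcggtcgttc
DKC1 U at chrX:154765961, plus strand, CDS, exon 4, mRNA base 436: tgcatgtggtTcaaatcctct
NCL U at chr2:231458310, minus strand, CDS, exon 8, mRNA base 1486: tgtttgaagaTgctgcggaga
NPM1 U at chr5:171387983, plus strand, CDS, exon 1, mRNA base 336: atgagcccccTgaggccccag
NOP58 A at chr2:202303457, plus strand, 3′ UTR, exon 15, mRNA base 1837: ttacgattatAtcacccggac

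DKC1, the targeted gene, was covered thinly in HCT116. In the CMC- libraries, the U at X:154762871 (5′ UTR, mRNA base 116) had 5 covering reads in HCT116-shDKC1 replicate 1 (95% exact Poisson interval 1.62 to 11.7), against 8 and 11 in the HCT116 replicates (intervals 3.45 to 15.8 and 5.49 to 19.7). Scaled to library totals as CPM, the covering reads were 0.169 CPM in the knockdown and 0.293 and 0.352 CPM in HCT116. The neighbouring U at X:154762874 had 6 covering reads in knockdown replicate 1 and 14 in HCT116 replicate 2. Knockdown replicate 2 listed a single DKC1 position in its Terminator table, X:154762868, with 2 CMC- covering reads. Both DKC1 positions listed in both populations were thus lower in the knockdown, with log2 differences of -0.93 and -1.14, but the counting intervals overlap. No DKC1 position was listed in all 4 Terminator tables of the 2 populations, so the fit across genes had no DKC1 value and the knockdown was not tested. In such bulk samples, fewer cells that express a gene and less RNA per cell cannot be told apart.

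In HEK293T, DKC1 was better covered, with 172 of its 174 positions listed. At the U at mRNA base 157 the stop percent was 14 and 13.8 in CMC+ Terminator libraries, 18.2 and 18.8 in CMC+ libraries, and 5.71 and 2.86 in CMC- libraries. The 2 treated groups lay above the CMC- group with no overlap, which listing alone required within each table. The log2 change against coverage was 1.65 ± 0.73 (SE) for CMC+ Terminator against CMC- (edgeR adjusted p = 0.0956) and 2.05 ± 0.80 for CMC+ against CMC- (edgeR adjusted p = 0.392), so neither passed the test. Its CMC+ Terminator covering reads, 85.5 and 94, were above the 35 and 35 of the CMC- libraries. With stop reads set against library totals in place of coverage, the first change was 3.07 (edgeR adjusted p = 6.11e-05), and with TMM scaling it was 2.29 (edgeR adjusted p = 0.0253). The highest DKC1 stop percents in HEK293T were at X:154762863, another U of the 5′ UTR (mRNA base 108), with 48.3 and 52.2 in CMC+ Terminator libraries and 69 in the listed CMC+ library. Its CMC- libraries had 46.3 and 40, so the high stop percent was present without CMC, at 8.64 to 29 covering reads.

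The NHP2 uridine of the 3′ UTR, shown first above, was listed in 8 of the 10 tables, including all 6 with Terminator. In HCT116-shDKC1 it had 12 stops of 34 covering reads and 17 of 48 in the CMC+ Terminator libraries (35.3% and 35.4%), against 1 of 21 and 3 of 34 in the CMC- libraries (4.76% and 8.82%). In HCT116 it had 12 of 29 and 13 of 40 with CMC+ Terminator (41.4% and 32.5%), against 4 of 19 and 3 of 28 with CMC- (21.1% and 10.7%). The 95% exact binomial intervals in HCT116 were 23.5 to 61.1% and 18.6 to 49.1% with CMC+ Terminator, and 6.05 to 45.6% and 2.27 to 28.2% with CMC-. They cover counting error only.

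The change at this NHP2 uridine passed the test in HCT116-shDKC1, with a log2 change of 2.22 ± 0.62 (SE; edgeR adjusted p = 0.00178, but 0.0777 with DESeq2). Listing had already required a stop ratio no lower with treatment in every table of the fit. In HCT116 it was 1.25 ± 0.56 and fell just short (edgeR adjusted p = 0.0504); it was called there with library totals (log2 change 2.12) and with TMM (1.66). The difference between the populations was itself tested, and the interaction of 0.97 ± 0.93 did not pass (edgeR adjusted p = 1). In HEK293T the stop percent was 8.85 and 13.3 with CMC+ Terminator, 13.9 and 11.7 with CMC+ and 4.89 and 3.73 with CMC-. CMC+ Terminator against CMC- gave 1.25 ± 0.47 (edgeR adjusted p = 0.0451), and CMC+ against CMC- gave 1.41 ± 0.53 (edgeR adjusted p = 0.297). The HEK293T call was lost without CMC+ Terminator replicate 2 (log2 change 0.72), without CMC- replicate 1 (1.68) and without CMC- replicate 2 (0.87). It was also lost with TMM (1.16), with no minimum of stop reads (edgeR adjusted p = 0.0577) and over positions listed in both tables of the comparison (edgeR adjusted p = 0.0526). The other 2 NHP2 uridines tested in HEK293T had log2 changes of 0.58 ± 0.48 and 0.56 ± 0.51 with CMC+ Terminator and were not called.

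**Figure D1:**
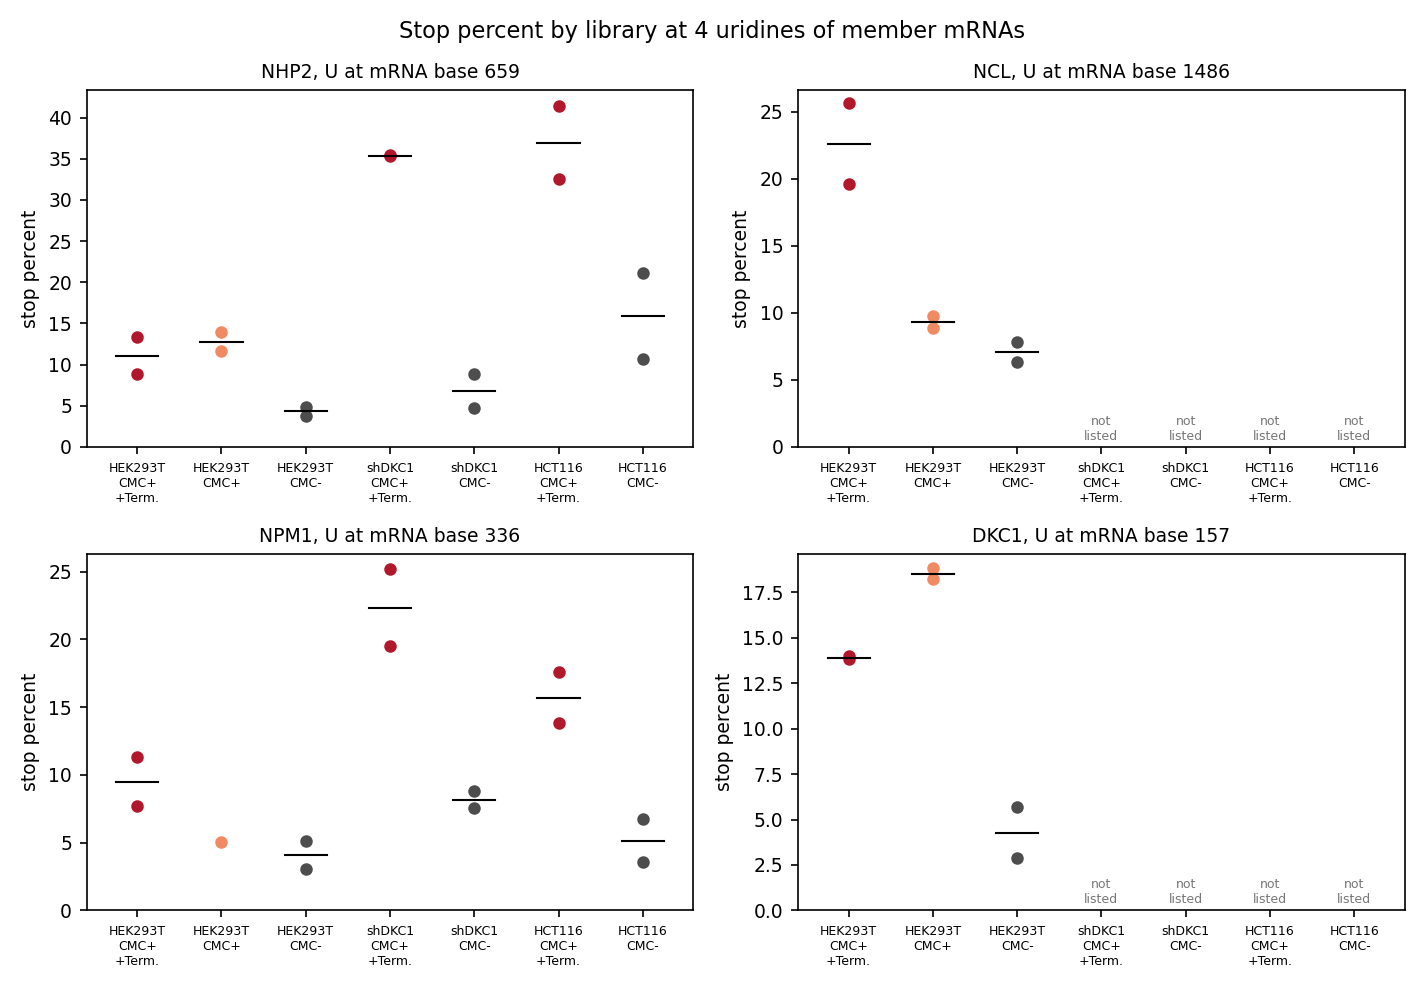
Stop percent (stop reads as a percent of covering reads) in each library at 4 uridines, with treated groups to the left of their CMC- group. Points are libraries, bars are means of 2 replicates, and groups whose tables do not list the position are marked. The NHP2 uridine had 35.3 and 35.4% in HCT116-shDKC1 CMC+ Terminator libraries against 4.76 and 8.82% in CMC-.

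NOP10 and GAR1 had no position in the main fits of stop reads, so those fits tested none of their positions. Both had positions listed in both tables of a single comparison, an alternative fit whose values for them are not given here. At the NOP10 G at 15:34343131 (mRNA base 47) the stop percent was 9.17 and 8.73 in HCT116-shDKC1 CMC+ Terminator libraries and 8.7 and 8.57 in CMC- libraries, so the groups differed by less than 1 percentage point at this base. GAR1 had a listed U at 4:109815516, upstream of position 109815553, where the GAR1 transcript used for annotation starts. It had 9 stops of 15 covering reads and 9 of 16 in HCT116-shDKC1 CMC+ Terminator libraries (60% and 56.2%), against 2 of 9 and 1 of 4 in CMC- libraries. In HEK293T it was listed in 1 table, with 44% in CMC+ Terminator replicate 2 and 36.4% in the CMC- library. HCT116 tables did not list that U, so it was not compared between populations.

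Among the box C/D mRNAs, NOP58 held 1 position tested in the main fits, the 3′ UTR adenosine shown above. Its stop percent in HEK293T was 34.5 and 29 with CMC+ Terminator, 23.1 and 9.8 with CMC+, and 7.84 and 8.57 with CMC-. CMC+ Terminator against CMC- gave a log2 change of 1.93 ± 0.56 (SE; edgeR adjusted p = 0.00838), which was lost without CMC- replicate 1 (1.54, edgeR adjusted p = 0.2) and with TMM (0.75). The best covered NOP58 uridine, in the CDS (mRNA base 1072), had 24.6 and 18% with CMC+ Terminator and 4.17 and 9.22% with CMC-, but too few stop reads for the test.

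FBL had 12 positions tested in HEK293T, with 0 called for CMC+ Terminator against CMC-, where 12.3% of all tested positions were called. Of the 12, 3 had an unadjusted edgeR p under 0.05, and DESeq2 gave most member positions no adjusted p. Their log2 changes with CMC+ Terminator ran from 0.33 to 1.39 with a median of 0.72, and the lowest edgeR adjusted p was 0.0704. The FBL uridine of highest coverage, in the CDS (mRNA base 851), had 7.67 and 10.3% with CMC+ Terminator, 9.96 and 7.26% with CMC+ and 6.87 and 6.64% with CMC-. In HCT116-shDKC1, an FBL uridine at mRNA base 315 had 23.1 and 22.6% with CMC+ Terminator and 3.33 and 9.68% with CMC-, and in HCT116 it was listed in replicate 1 only, with 21.7% and 6.45%.

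NOP56 had 480 listed positions but 0 tested in the main fits, because those listed in every HEK293T table had too few stop reads (a minimum of 10 in at least 2 libraries). The introns of NOP56 host box C/D snoRNAs, and 58 of its positions lay inside 4 of them: 21 in SNORD110, 15 in SNORD86, 12 in SNORD57 and 10 in SNORD56. In those 58, reads of the snoRNA and of NOP56 transcripts that keep the intron share the sequence. The NOP56 uridine of highest coverage (CDS, mRNA base 1431) had 7.14 and 6.42% with CMC+ Terminator, 6.62 and 12.2% with CMC+ and 5.68 and 5.95% with CMC- in HEK293T, so the CMC+ Terminator values exceeded the CMC- values by less than 2 percentage points.

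NCL carried most of the member calls in HEK293T, 6 of its 37 tested positions (background 12.3%), of which 3 were uridines. The uridine of mRNA base 1486 had 19.6 and 25.6% with CMC+ Terminator, 9.76 and 8.88% with CMC+ and 6.3 and 7.84% with CMC-. Both CMC+ Terminator values lay above all 4 others. The log2 change with CMC+ Terminator against CMC- was 1.70 ± 0.44 (SE; edgeR adjusted p = 0.00236). It stayed called without CMC+ Terminator replicate 1 and was lost without each of the other 3 libraries of the comparison, with edgeR adjusted p of 0.0582 to 0.106, and with TMM (0.44).

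The other called NCL uridines were nearer the threshold. The one at 2:231461832 (mRNA base 562, CDS) had a log2 change of 1.20 ± 0.44 (edgeR adjusted p = 0.0401) and lost its call in 4 of 7 alternatives, including leaving out either CMC- replicate (1.46 without replicate 1, 1.01 without replicate 2) and TMM (0.26). The one at 2:231464388 (mRNA base 207, 5′ UTR) had 1.15 ± 0.43 (edgeR adjusted p = 0.0423) and lost its call in 6 of 9, including leaving out any of the 4 libraries (0.81 to 1.47) and TMM (0.26). The largest change of any tested member position for CMC+ Terminator against CMC- in HEK293T was at an NCL adenosine, 2:231463203 (CDS, mRNA base 373). It had 14.4 and 12.8% with CMC+ Terminator, 6.47 and 5.4% with CMC+ and 3.77 and 2.63% with CMC-, a log2 change of 2.06 ± 0.49 against CMC- (edgeR adjusted p = 0.000844). That adenosine stayed called without either CMC- replicate, lost its call with TMM (0.78), and had no value without a CMC+ Terminator replicate.

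NPM1 had 7 of the 9 member positions tested in the HCT116 populations, and its values carry a limit of sequence. Of its 478 positions, 86 had a sequence, of up to 31 bases, that the tables also list elsewhere, among them NPM1 pseudogenes. The uridine of mRNA base 336 and the G and A that follow it have a sequence listed at 7 places. In HCT116-shDKC1 that uridine had 25.2 and 19.5% with CMC+ Terminator and 7.57 and 8.78% with CMC-. In HCT116 it had 17.6 and 13.8% with CMC+ Terminator and 6.75 and 3.57% with CMC-.

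In HEK293T, 2 of 15 tested NPM1 positions were called for CMC+ Terminator against CMC- (background 12.3%), both of unrepeated sequence. The G at mRNA base 620 (5:171391766) had a log2 change of 1.44 ± 0.54 (edgeR adjusted p = 0.0437). Its call was lost in 6 of 7 alternatives, among them the 3 that left out a library, with changes of 0.23 to 2.14 over the 7. The A at mRNA base 652 (5:171391798) had 1.12 ± 0.36 (edgeR adjusted p = 0.0182). It lost its call in 6 of 10 alternatives, among them leaving out any of the 4 libraries, and turned to -0.15 with TMM.

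The log2 change of the NPM1 uridine at mRNA base 336 was 1.43 ± 0.30 in HCT116-shDKC1 (edgeR adjusted p = 3.21e-05) and 1.60 ± 0.38 in HCT116 (edgeR adjusted p = 0.000157). With TMM the change was 0.37 in HCT116-shDKC1 and 0.56 in HCT116, and neither was called. With library totals the change in HCT116-shDKC1 was 0.80, under the fold of 2 that a call needs. The next base, G at 5:171387984, changed more, by 1.88 ± 0.34 in HCT116-shDKC1 and 1.84 ± 0.34 in HCT116, and was called there under each of the 10 alternatives tried in each population. It was also the only member position listed in all 10 tables. The NPM1 uridine at 5:171407751 (CDS, mRNA base 1124), whose sequence is listed at 1 place, had 28.2 and 20.9% with CMC+ Terminator and 13.6 and 12.3% with CMC- in HCT116-shDKC1. In HCT116 it had 20 and 19.4% with CMC+ Terminator and 12.1 and 6.67% with CMC-. Its log2 change was 0.91 ± 0.43 in HCT116-shDKC1 (edgeR adjusted p = 0.0679) and 1.02 ± 0.51 in HCT116 (edgeR adjusted p = 0.0774), and neither passed the test.

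Counted together, 10 of 69 tested member positions were called higher for HEK293T CMC+ Terminator against CMC-, where 12.3% of all 14824 tested positions were called. Calls needed a change of 2-fold or more and an edgeR adjusted p below 0.05, among positions that listing had already selected for a ratio no lower with treatment. By base, 4 of 28 member uridines were called (17.8% of all tested uridines) and 6 of 41 other member bases (8.76% of all other bases). The members' share over all bases, 14.5%, was close to the background. By base it was 14.3% of their uridines, below the 17.8% of all uridines, and 14.6% of their other bases, above 8.76%. These shares rest on 4 and 6 calls, and their difference from the background was not tested. Their median log2 change was 0.75, against 0.53 over all tested positions. The count was 4 without CMC+ Terminator replicate 1, 0 without replicate 2, 1 without CMC- replicate 1 and 2 without CMC- replicate 2. With library totals 23 were called higher, and with TMM 1 was higher and 2 were lower.

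Without Terminator, 0 of the 69 positions were called for HEK293T CMC+ against CMC- by edgeR, against a background of 1.41%, and 5 had an unadjusted p under 0.05. For CMC+ Terminator against CMC+, 0 of 69 were called by edgeR (background 0.897%), 6 had an unadjusted p under 0.05, and the lowest edgeR adjusted p was 0.0791. With TMM 5 of them were called lower, and with library totals 2 were called higher. DESeq2 gave no adjusted p for any member position in these 2 comparisons. In HCT116 without Terminator, 2 positions could be tested, 1 in NCL and 1 in NPM1. Of them, 0 were called by edgeR, 0 had an unadjusted p under 0.05 and 0 were called by DESeq2 (background 1.65%).

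**Figure D2:**
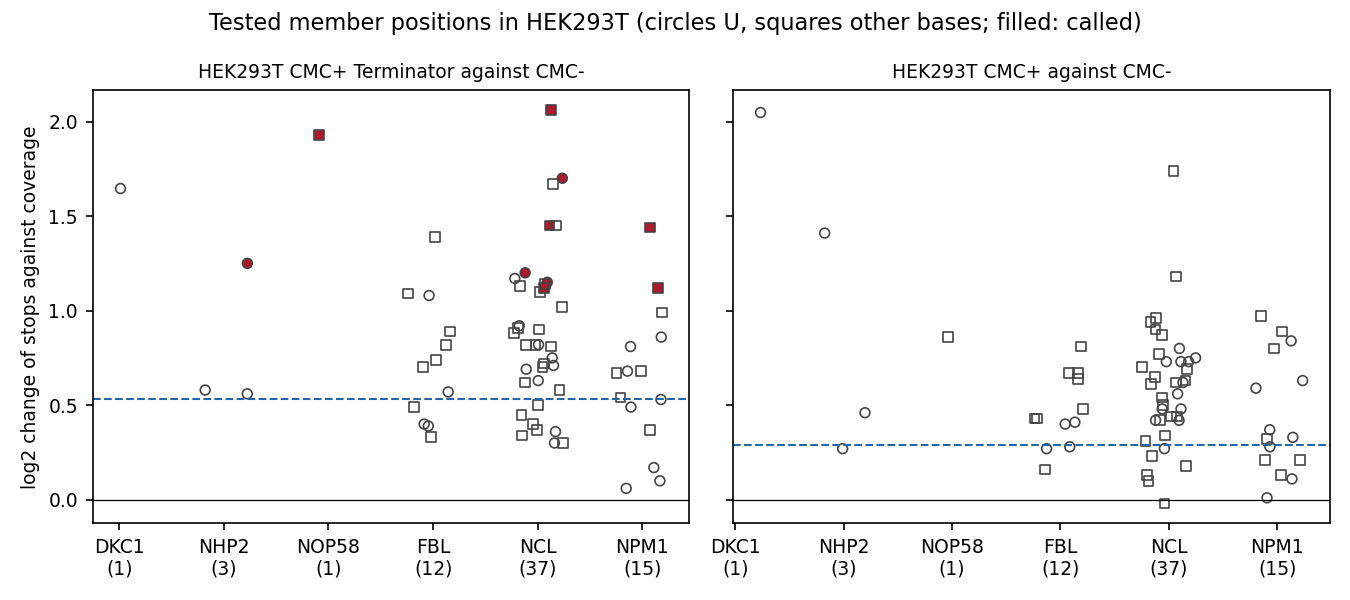
Log2 change of stop reads against covering reads at the 69 tested member positions in HEK293T, CMC+ Terminator against CMC- on the left and CMC+ against CMC- on the right. Circles are uridines, squares other bases, filled symbols the 10 called positions, numbers in brackets the positions per gene, and the dashed line is the median over all tested positions (0.53 and 0.29).

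In the Terminator tables of HCT116-shDKC1 and HCT116, 9 member positions were tested, 7 in NPM1 and 1 each in NHP2 and NCL. In HCT116-shDKC1, 4 were called higher (background 19.7%): the NHP2 uridine and the 3 adjoining NPM1 bases. In HCT116, 5 were called higher (background 24.9%), all in NPM1 and all of repeated sequence. The 3 NPM1 bases are neighbours in the same reads and are not independent. Counted over the 3 members of unrepeated sequence, 1 was called in HCT116-shDKC1 and 0 in HCT116, where leaving out any of the 4 libraries in turn left 2 called, of 8 tested without CMC+ Terminator replicate 1 and of 9 without any other.

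The interaction of knockdown with the Terminator response was called at 0 of 9 member positions by edgeR, against 0.0115% of all 26153 called lower, and 0 of the 9 had an unadjusted p under 0.05. DESeq2 gave no adjusted p for these 9. Interaction estimates ran from -0.84 to 0.97 on the log2 scale, with a median of -0.11 against -0.07 over all tested positions. Their standard errors ran from 0.39, at the NPM1 G, to 0.93, at the NHP2 uridine.

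Terminator libraries also differed in where these mRNAs were covered. The median log2 ratio of coverage in CPM, CMC+ Terminator over CMC-, pooled over the listed 5′ UTR positions of the members, was 1.48 and 1.45 in the 2 HCT116-shDKC1 tables, 1.92 and 1.97 in the HCT116 tables, and 0.84 and 0.62 in the HEK293T tables. NPM1 was lowest, with 5′ UTR medians of -0.63 and 0.05 in HCT116-shDKC1, 0.53 and -0.22 in HCT116, and -0.03 and -0.23 in HEK293T. NCL was also below the pooled medians, at 0.53 and 0.66 in HCT116-shDKC1, 0.60 and 0.02 in HCT116, and 0.68 and 0.32 in HEK293T. In coding sequence the pooled medians were -0.97 and -0.79 in HCT116-shDKC1, -0.70 and -0.78 in HCT116, and -0.07 and -0.25 in HEK293T. NCL and NPM1, which hold many of these positions, were below 0 in all 6 tables. In HEK293T CMC+ Terminator replicate 1 the coding medians were above 0 for FBL (0.19), NHP2 (0.17), NOP56 (0.11), DKC1 (0.06) and GAR1 (0.66), and in replicate 2 for GAR1 (0.82) and NOP10 (0.45).

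In other protein-coding genes of the HCT116 lines, 5′ UTR medians were 1.44 to 1.66 and coding medians were -0.83 to -0.59. In HEK293T, other protein-coding genes had 5′ UTR medians of 0.98 and 0.87 and coding medians of 0.27 and 0.07, above 0 where those pooled over members were below it. Without Terminator, HEK293T CMC+ against CMC- gave 5′ UTR medians of -0.15 and -0.38 in members. Within the first 100 bases of the members' transcripts every listed position was above 0 in each of the 6 Terminator tables, with medians of 1.01 to 2.28. These were 13 to 40 positions a table, all in NOP10, NHP2, FBL or NOP58. Other protein-coding genes had medians of 0.74 to 1.52 within the same first 100 bases. Most NOP10 positions in the HCT116 lines lie there. Its 5′ G at mRNA base 47 had 120 and 126 covering reads in HCT116-shDKC1 CMC+ Terminator libraries and 23 and 35 in CMC- libraries. NOP56 had a similar excess near mRNA base 487, inside its 5′ UTR, where the C had 94 covering reads in HCT116-shDKC1 CMC+ Terminator replicate 1 and 22 in the CMC- library. At such bases a change in stop reads per library and a change in stop percent differ, as at the DKC1 uridine of mRNA base 157.

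**Figure D3:**
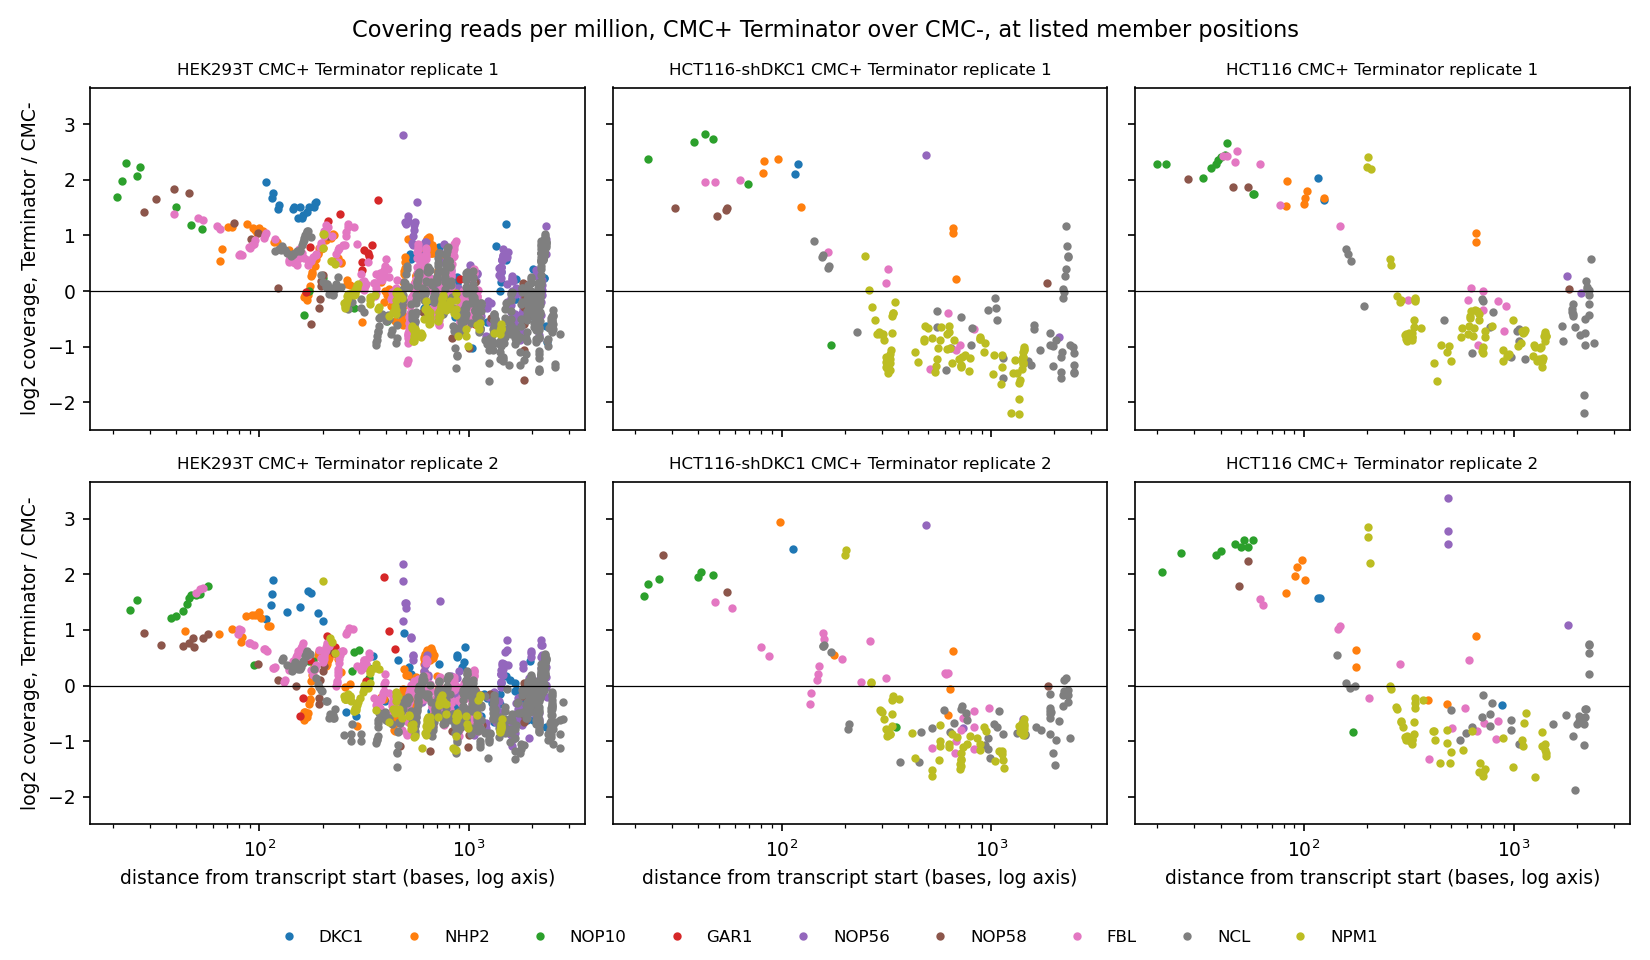
Log2 ratio of covering reads in CPM, CMC+ Terminator over CMC-, at each listed member position, against the distance from the transcript start in bases (log axis), for the 6 Terminator tables. Colours are genes. Every listed position in the first 100 bases, where only NOP10, NHP2, FBL and NOP58 have any, lies above 0 in all 6 tables.

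Gene coverage in the CMC- libraries stood in for transcript level, with an edgeR adjusted p below 0.05 as the call and no fold needed. Covering reads were summed per gene over the positions that HCT116-shDKC1 and HCT116 share in all 4 tables with Terminator. These were 10 positions in NPM1, some of them of repeated sequence, 5 in NCL and 1 in NHP2, the 3′ UTR uridine shown above. A read over several of these positions counts at each, so the sums are not counts of separate reads. NCL, NHP2 and NPM1 could be tested among 860 genes, and 0 of these 3 were called by edgeR or by DESeq2, with 0 at an unadjusted p under 0.05. The background was 0.233% of genes called higher and 0.814% called lower. NPM1 had 2369 and 2095 covering reads in HCT116-shDKC1 and 1807 and 1899 in HCT116, a log2 change of 0.27 ± 0.15 (SE; edgeR adjusted p = 0.482). NCL had 379 and 368 in the knockdown and 328 and 374 in HCT116 (0.09 ± 0.14, edgeR adjusted p = 0.848). NHP2 had 21 and 34 in the knockdown and 19 and 28 in HCT116 (0.23 ± 0.30, edgeR adjusted p = 0.823).

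In the CMC+ Terminator libraries the log2 changes of the same genes were 0.19 ± 0.16 for NPM1, 0.32 ± 0.19 for NCL and 0.17 ± 0.27 for NHP2. There too 0 of 3 were called by edgeR among 964 genes (background 0.104% higher and 0.311% lower), 0 were called by DESeq2 and 0 had an unadjusted p under 0.05.

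Positions listed in at least 1 table of each population give the other members, as values without a test. The log2 ratio of mean CMC- covering reads in CPM, HCT116-shDKC1 over HCT116, had a median of 0.68 at 10 FBL positions, 0.55 at 3 NOP56 positions and 0.94 at 2 NOP58 positions. It was 0.23 at 5 NHP2, 0.04 at 7 NOP10, 0.07 at 24 NCL and 0.18 at 50 NPM1 positions, and 1.02 at 1 GAR1 position (0.372 against 0.183 CPM). No position of FBL, NOP56, NOP58, NOP10, GAR1 or DKC1 was listed in all 4 Terminator tables. At each of them the mean of at least 1 population is thus the value of 1 library. The same holds at all but 1 of the NHP2, 5 of the NCL and 10 of the NPM1 positions. DKC1 was the only member with a median below 0, at -1.04 over 2 positions. Those 2, at mRNA bases 116 and 119, had 5 and 6 covering reads in the same knockdown library, replicate 1, so they are not independent.

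**Figure D4:**
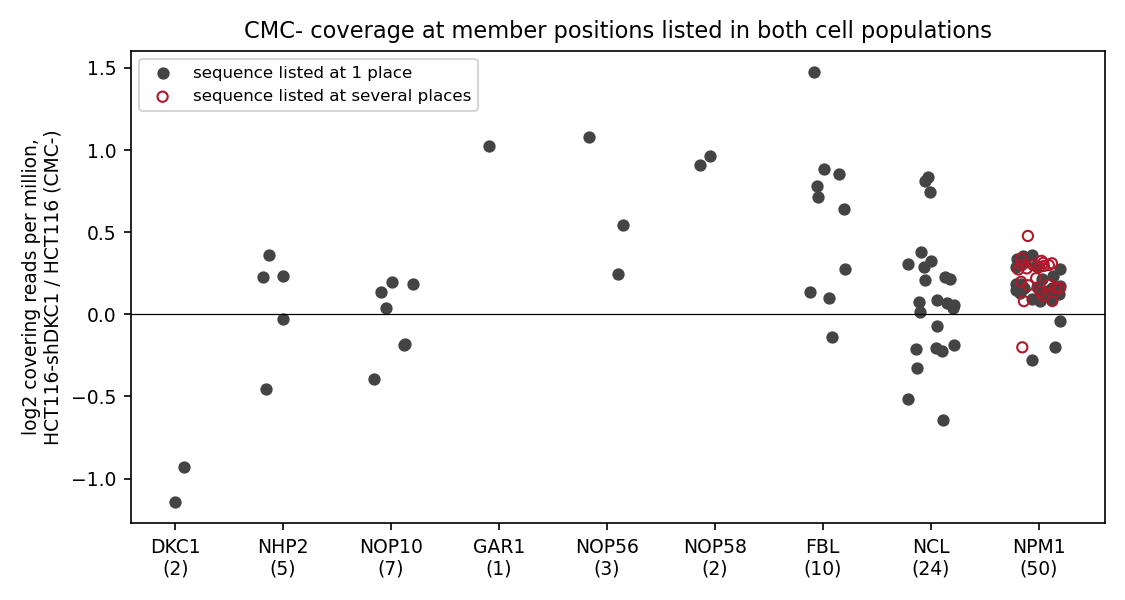
Log2 ratio of CMC- covering reads in CPM, HCT116-shDKC1 over HCT116, at member positions listed in both populations, by gene with the number of positions in brackets. Open red circles are positions whose sequence is listed at several places. Both DKC1 positions lie below 0, at -0.93 and -1.14, and rest on the same knockdown library.

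Other genes of these pathways were little represented in the gene coverage fit of the CMC- libraries. Of 15 snoRNP assembly and dyskerin partner genes, 2 were tested and 0 called: RUVBL2, an ATPase of snoRNP assembly, at -0.20 ± 0.29, and SNU13, which binds box C/D RNA, at 0.12 ± 0.27. Of 40 nucleolar ribosome biogenesis genes, 4 were tested and 0 called, with NPM3, a nucleophosmin relative, at 0.44 ± 0.21. Of 12 other pseudouridine synthases, 0 were tested. Of 8 epithelial markers, 5 were tested in the CMC- libraries and 1 was called lower in HCT116-shDKC1, the keratin KRT19, at -0.50 ± 0.14 (edgeR adjusted p = 0.0468). CLDN4 was at -0.73 ± 0.22 (edgeR adjusted p = 0.0619), KRT8 at -0.10, KRT18 at -0.07 and S100A6 at 0.08. In the CMC+ Terminator libraries KRT19 was at -0.54 ± 0.16 and not called (edgeR adjusted p = 0.0884).

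The listed uridines of these mRNAs were also searched for the motifs of the stand-alone synthases PUS7 (UNUAA or UNUAG) and TRUB1 (GUUCNANNC), with the listed base at place 3 of the motif, on the transcript strand only. The PUS7 motif stood at 18 of 1028 member uridines (1.75%), against 1.13% of listed uridines in all protein-coding genes. The TRUB1 motif stood at 1 member uridine (0.0973%, against 0.0632%), the DKC1 base of mRNA position 436 shown above. It was listed in 1 table, HEK293T CMC+ Terminator replicate 2, with 7 stops of 19 covering reads (36.8%), against 1 of 24 in the CMC- library (4.17%). Of the PUS7 matches, the NPM1 uridine at 5:171391312 (CDS, mRNA base 447) was listed in the most tables, 6 of 10. It had 9.9 and 15.6% with CMC+ Terminator, 9.53 and 6.09% with CMC+ and 5.76 and 5.81% with CMC- in HEK293T. A motif match is a description of the sequence and does not show which enzyme, if any, acts there.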

How the data were processed

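Per the submitters' processing notes, reads were trimmed and aligned with tools that include cutadapt 2.8 and STAR, on hg38. The authors deposited 10 tables of stop reads and covering reads per position. Those of the HCT116 and HCT116-shDKC1 Terminator libraries hold whole counts, as deposited. Those of HEK293T and of HCT116 without Terminator hold fractional, expected counts, as deposited, and were rounded for the fits. RPM columns, per the file headers, were not used in the main tests. They gave the library totals behind the CPM values and the alternative with library totals. In the HCT116 tables without Terminator, control stop reads equalled those of the same-numbered HCT116 CMC- library at 22.08 and 21.72% of shared positions. They were not above them at 99.98% in both replicates, against 90.75 and 76.86% for the other-numbered library. No label names the control library of these tables, so they were fitted on their own.

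Stop reads were tested with edgeR 4.0.16 (quasi-likelihood, R 4.3.3), with log covering reads as offset and the replicate number as a block, since the series' design pairs CMC- and CMC+ samples in each replicate. A position entered if every table of the fit listed it and 2 or more libraries had 10 or more stop reads, and p-values were adjusted (Benjamini-Hochberg) over all of them. A call of a position needed an adjusted p under 0.05 and a fold of at least 2, and a call of gene coverage only the adjusted p. Gene coverage was tested with edgeR and TMM, on genes with at least 10 covering reads on average, without the block. Standard errors are the log2 change divided by the normal quantile of its p-value. DESeq2 1.42.0, library totals, TMM and leaving out each library were alternatives. The fits were tested on simulated data.

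Every member is named at gene level. The rule for named positions took the called uridines of largest change, the uridines of highest coverage and the DKC1 position of largest stop ratio. Other named positions were chosen after their values were seen: the remaining calls of any base, DKC1, NOP10, GAR1, NOP56 and FBL positions of the HCT116 lines, widely listed positions, and motif matches. The members, gene lists and rules were chosen with earlier results of these data known. No DKC1 position was listed in all Terminator tables of the HCT116 populations, so no gene of like pattern was sought. Transcript places come from GENCODE 29, and sequences from the deposited tables.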

Additional observations from a re-analysis of the deposited data

How the results depend on the processing

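For HEK293T CMC+ Terminator against CMC-, 10 member positions were called. The count was 23 with library totals, 3 with TMM (1 higher, 2 lower), 0 of 9 with DESeq2, 28 of 200 over positions of both tables of the comparison, and 0 to 4 when 1 library was left out. Over all positions that split was 1825 higher and 0 lower, but 291 and 166 with TMM. With coverage as offset, listing left no room for a lower call, so that 0 is no finding. CMC+ Terminator against CMC+ gave 2 higher with library totals and 5 lower with TMM, in place of 0. In HCT116-shDKC1, 4 became 2 with library totals, TMM or DESeq2, and 1 over unrepeated sequence. In HCT116, 5 became 3 with library totals, 2 with TMM or DESeq2, 10 of 16 with no minimum, 3 of 10 over both tables, 0 over unrepeated sequence, and 2 without any 1 library. The other member counts were equal or within 1.5 times, 66 of 90 in all, and these include counts of 0 that stayed 0. NPM1 5:171392774 reversed in HCT116 with library totals (-0.14) and TMM (-0.60), and NPM1 5:171391798 in HEK293T with TMM (-0.15). The cause of these changes was not tested. Of 229 values of single positions, 144 stayed on their side of the threshold and 78 lost their call. The 144 include values of NHP2 and DKC1 positions that were not called in the main fit. Differences of log2 stop ratio between replicates 1 and 2 correlated at 0.05 to 0.39 between groups of a population, so the pairing rests on the design text. Without the replicate block 13, 4 and 5 positions were called in HEK293T, HCT116-shDKC1 and HCT116 with Terminator, and with a replicate block gene coverage gave 0 members. DESeq2 gave no adjusted p to 60 of 69 positions in HEK293T CMC+ Terminator against CMC-, to any in the other HEK293T comparisons or the interaction, or, with its own size factors, to the 2 of HCT116 without Terminator. Alternatives over both tables, over unrepeated sequence, and with summed stop reads or DESeq2 with coverage in HCT116 without Terminator were chosen after seeing the data. Depth limits DKC1, at 2 to 20 covering reads in the CMC- libraries of the HCT116 populations, and GAR1 there too.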
